A study of Mus musculus with 13 samples.

Results

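The open chromatin around 7 transcription factor genes of the forebrain, Zic1, Zic2, Zic4, Zic5, Nr2f1, Nr2f2 and Nr2e1, was described in mouse embryos at E12.5. ATAC-seq, in which the Tn5 transposase inserts adapters where DNA is accessible, was carried out on forebrain (FB) cells and on cells of the distal (DFL) and the proximal forelimb (PFL). Regions of accessible DNA called by the authors were assigned to a gene when their strongest point, the summit, lay within 100 kb of the gene body. This gave 1022 of the 1356806 regions called in 13 libraries. Zic1 and Zic4 lie side by side, as do Zic2 and Zic5, so that each pair shares most of its regions and the 7 genes form 5 loci. The loci held 181 regions at Zic1/Zic4, 311 at Zic2/Zic5, 196 at Nr2f1, 172 at Nr2f2 and 162 at Nr2e1. At the border of the rule, the region farthest inside lay 98.0 kb from Zic1 in a wt FB library with a fold of 3.40, and the nearest one outside lay 100.5 kb from Zic4 in a wt DFL library with a fold of 2.20.

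Each tissue was taken from wild-type (wt) embryos and from embryos of allele 542, with 2 libraries per group and 12 in all. All animals were of the B6CBAF1 background and untreated. Allele 542 comes from 1 founder line and was homozygous. It carries a copy of II1, a distal limb enhancer of the HoxD locus, moved into the regulatory domain on the other side of the Hoxd genes, with an HBB promoter and LacZ behind it. None of the 7 genes lies on chromosome 2, which holds the insertion. A library came from 50000 cells of a pool of several embryos, so the spread given below is that between pools. A further wt DFL library, analysed anew from an earlier experiment, entered no group. The 12 libraries held an estimated 37.5 to 70.7 M (mega) tags and 85059 to 118277 regions. By tissue, the tags were 51.4 to 70.7 M in FB, 40.2 to 54.5 M in DFL and 37.5 to 52.7 M in PFL, so FB ranged highest. The numbers of regions overlapped, at 94016 to 109867 in FB, 97733 to 118277 in DFL and 85059 to 113810 in PFL. The wt libraries had more tags (44.0 to 70.7 M) than the 542 libraries (37.5 to 64.5 M), and their 50000 strongest regions covered 34.9 to 37.3 Mb as against 29.8 to 34.5 Mb, with no overlap. The tissue labels were checked on marker genes. All 7 forebrain markers had longer open stretches in FB and all 6 limb mesenchyme markers had shorter ones. Of all 18351 genes tested, 5602 were longer in FB and 3914 were shorter. Tbx5, a forelimb gene, averaged 0.146 kb in FB, 2.27 kb in DFL and 3.61 kb in PFL. Most markers of the limb parts did not pass between DFL and PFL. Of 4 distal limb markers 1 was longer in DFL, Sall3 (0.49 on the log2 scale, limma adjusted p = 0.00925), and of 3 proximal limb markers tested 0 passed, with Meis1 at -0.28, Scx at -0.17 and Hoxd9 at 0.30.

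The Zic genes encode zinc finger transcription factors related to the Gli proteins of Hedgehog signalling, and they act in the dorsal neural tube and the midline of the forebrain. Zic2 is known as a gene of holoprosencephaly, in which the forebrain hemispheres fail to separate. Nr2f1 and Nr2f2, also called COUP-TFI and COUP-TFII, are orphan nuclear receptors that give areas of the cortex and classes of interneurons their identity, and Nr2f2 also acts in mesenchyme and in veins. Nr2e1, also called Tlx, is an orphan nuclear receptor of neural stem cells. Regulatory DNA of such genes is often spread over long stretches of sequence, so promoters and distant regions were both examined.

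Sequences of the regions that set the tissues apart most clearly are given first, each as the 300 bases around the highest summit of the region in the mouse reference genome GRCm38 (mm10), + strand. Base 151 is the summit. Capitals mark matches to 7 short motifs that were searched on both strands, CCTGCTG (Zic type), AGGTCA (nuclear receptor type), TAATTA (homeodomain core), CCAATAAA (HOX13 type), AACAATG (Sox type), CAGCTG (E-box) and a CTCF type. The following regions were called in all 4 FB libraries and in none of the 8 limb libraries. They have the highest mean fold of that kind at their locus, together with the next one at Nr2f2 and a weaker one at Zic4, number 3 in fold there. By tags the order can differ, and at Nr2f1 other regions of that kind held more.
Nr2f2, 57.7 kb upstream, chr7:70424239-70424538: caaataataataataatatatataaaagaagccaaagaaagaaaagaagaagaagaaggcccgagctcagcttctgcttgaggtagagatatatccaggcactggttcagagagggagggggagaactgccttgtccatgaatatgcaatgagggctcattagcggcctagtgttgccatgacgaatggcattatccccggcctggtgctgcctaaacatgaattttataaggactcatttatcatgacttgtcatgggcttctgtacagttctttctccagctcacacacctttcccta
Nr2f2, 15.1 kb upstream, chr7:70381703-70382002: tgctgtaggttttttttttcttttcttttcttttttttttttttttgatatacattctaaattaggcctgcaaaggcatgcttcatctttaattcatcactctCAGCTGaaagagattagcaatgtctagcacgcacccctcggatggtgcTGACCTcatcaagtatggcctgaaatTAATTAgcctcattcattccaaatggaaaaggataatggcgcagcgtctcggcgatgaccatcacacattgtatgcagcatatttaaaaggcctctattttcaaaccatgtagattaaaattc
Zic4, 78.0 kb downstream of the nearest start, chr9:91456521-91456820: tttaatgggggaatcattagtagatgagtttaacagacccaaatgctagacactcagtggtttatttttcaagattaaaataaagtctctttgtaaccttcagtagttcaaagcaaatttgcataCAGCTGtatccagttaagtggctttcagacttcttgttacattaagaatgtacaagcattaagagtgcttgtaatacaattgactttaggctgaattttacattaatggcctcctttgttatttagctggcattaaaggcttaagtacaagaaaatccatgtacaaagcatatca
Zic4, 39.9 kb downstream, chr9:91418375-91418674: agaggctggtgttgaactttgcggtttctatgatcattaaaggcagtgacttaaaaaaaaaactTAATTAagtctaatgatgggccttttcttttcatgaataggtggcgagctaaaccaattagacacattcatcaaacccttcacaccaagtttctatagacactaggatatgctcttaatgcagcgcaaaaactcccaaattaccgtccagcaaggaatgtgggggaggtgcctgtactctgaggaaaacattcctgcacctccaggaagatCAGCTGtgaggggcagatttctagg
Zic5, 91.9 kb downstream, chr14:122373612-122373911: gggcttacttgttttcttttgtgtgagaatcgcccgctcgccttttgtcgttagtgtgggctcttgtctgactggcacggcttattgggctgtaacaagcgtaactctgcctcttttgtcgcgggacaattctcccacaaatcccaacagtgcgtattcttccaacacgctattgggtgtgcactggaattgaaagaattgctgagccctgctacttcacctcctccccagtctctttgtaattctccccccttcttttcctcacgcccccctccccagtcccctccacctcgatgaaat
Nr2f1, 104.2 kb downstream, chr13:78091998-78092297: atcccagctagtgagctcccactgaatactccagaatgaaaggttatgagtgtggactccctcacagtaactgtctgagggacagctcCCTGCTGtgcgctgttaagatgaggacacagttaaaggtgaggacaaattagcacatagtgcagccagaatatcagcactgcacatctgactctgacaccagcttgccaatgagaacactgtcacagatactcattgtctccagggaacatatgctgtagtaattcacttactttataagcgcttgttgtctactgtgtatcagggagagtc
Nr2e1, 47.5 kb upstream, chr10:42631005-42631304: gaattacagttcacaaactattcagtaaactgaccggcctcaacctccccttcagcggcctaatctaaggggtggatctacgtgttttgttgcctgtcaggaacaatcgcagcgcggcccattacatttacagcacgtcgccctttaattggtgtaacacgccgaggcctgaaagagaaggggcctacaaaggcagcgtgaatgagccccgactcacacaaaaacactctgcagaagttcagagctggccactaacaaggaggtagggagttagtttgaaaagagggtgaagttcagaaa

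The opposite pattern, a call in all 8 limb libraries and in no FB library, was met at 4 regions. The 3 of them that overlap no exon are shown.
Zic5, 23.5 kb downstream, chr14:122442020-122442319: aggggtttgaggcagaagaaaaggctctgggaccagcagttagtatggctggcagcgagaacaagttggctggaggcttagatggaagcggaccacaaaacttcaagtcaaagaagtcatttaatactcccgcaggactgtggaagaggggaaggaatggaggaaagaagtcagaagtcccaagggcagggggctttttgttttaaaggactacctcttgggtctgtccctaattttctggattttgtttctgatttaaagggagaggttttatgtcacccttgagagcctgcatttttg
Nr2f1, 13.6 kb upstream, chr13:78213174-78213473: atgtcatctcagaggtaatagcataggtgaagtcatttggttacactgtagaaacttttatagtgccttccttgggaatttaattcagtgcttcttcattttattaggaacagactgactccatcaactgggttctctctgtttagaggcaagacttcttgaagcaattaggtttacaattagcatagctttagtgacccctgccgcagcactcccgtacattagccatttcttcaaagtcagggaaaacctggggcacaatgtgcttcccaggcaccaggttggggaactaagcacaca
Nr2f2, 66.9 kb upstream, chr7:70433494-70433793: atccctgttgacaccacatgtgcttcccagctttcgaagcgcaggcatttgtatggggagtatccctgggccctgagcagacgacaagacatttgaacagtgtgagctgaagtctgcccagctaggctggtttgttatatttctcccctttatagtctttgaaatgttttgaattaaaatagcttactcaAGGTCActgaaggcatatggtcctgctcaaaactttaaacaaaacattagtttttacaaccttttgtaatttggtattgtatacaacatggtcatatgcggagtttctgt

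The question put first was how much open chromatin each gene has in forebrain and limb. It was measured as open length, the summed length of the regions near the gene among the 50000 strongest of each library. In bulk tissue, fewer cells with an open region cannot be told apart from less accessibility per cell. Open length was greater in FB than in limb for 6 of the 7 genes, beside 30.5% of all 18351 protein-coding genes tested. The median difference of the 7 genes was 0.97 on the log2 scale and that of all genes was 0.05. Differences are given on the scale log2(kb + 0.5), with adjusted p from limma over all genes.

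**Figure D1:**
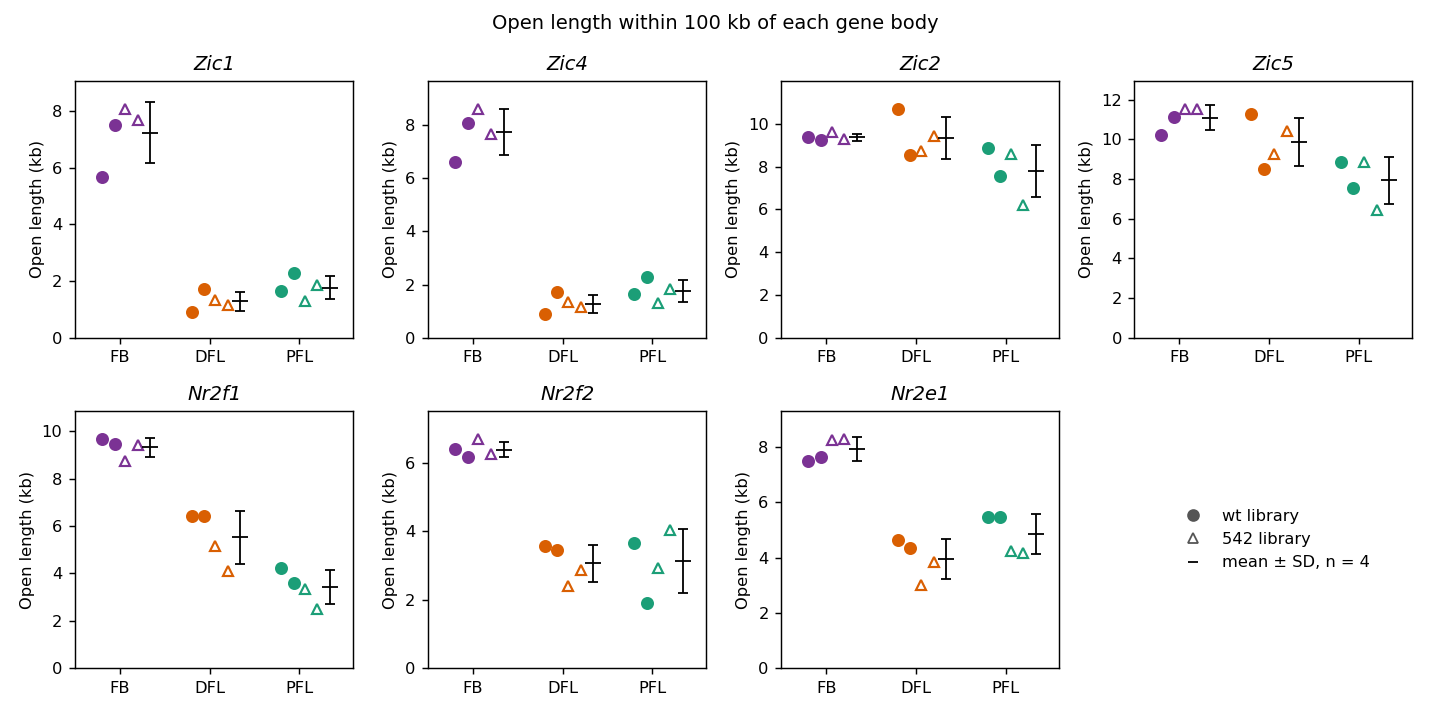
Open length (kb, vertical axis) within 100 kb of each of the 7 genes in FB, DFL and PFL. Filled circles are wt libraries, open triangles 542 libraries, and bars the mean ± SD of the 4 libraries of a tissue. At Zic1, Zic4, Nr2f1, Nr2f2 and Nr2e1 every FB library lies above every limb library, while at Zic2 the FB libraries overlap those of DFL and lie above those of PFL.

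The neighbours Zic1 and Zic4 differed most. Around Zic1, open length was 5.65 and 7.51 kb in the wt FB libraries and 8.08 and 7.67 kb in the 542 FB libraries. In DFL it was 0.902 and 1.72 kb in wt and 1.33 and 1.16 kb in 542, and in PFL 1.65 and 2.29 kb in wt and 1.30 and 1.85 kb in 542. FB thus stood apart from all 8 limb libraries, at 4.74 times the limb mean. The difference at Zic1 was 1.95 (SE 0.14, adjusted p = 1.77e-06) and that at Zic4, which adds regions on its far side, was 2.05 (SE 0.14, adjusted p = 1.08e-06). Both lay at percentile 99.9 of all genes. Ranked by open length within a library, Zic1 stood at percentile 12.2 to 20.3 of the genes in limb and 54.9 to 80.9 in FB. No other protein-coding gene lies within 100 kb of this pair.

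Zic2 and Zic5, the second pair, had long open stretches in every tissue. Around Zic2 the 4 FB libraries held 9.38 ± 0.165 kb (SD, n = 4), the DFL libraries 9.34 ± 0.994 kb and the PFL libraries 7.80 ± 1.21 kb. FB and DFL overlapped, and the difference between FB and limb was 0.14 (95% interval -0.05 to 0.33, limma adjusted p = 0.204). Around Zic5 open length was 11.1 ± 0.630 kb in FB, 9.88 ± 1.23 kb in DFL and 7.93 ± 1.18 kb in PFL. The difference at Zic5 was 0.32 (SE 0.09, adjusted p = 0.0138), but its call was lost without wt FB replicate 2 (0.29, adjusted p = 0.0547) and in a window of 50 kb (0.10, adjusted p = 0.432). With only the 20000 strongest regions, Zic2 also passed (0.43, adjusted p = 0.0160). The windows of this pair also hold regions of Clybl, Gm5089, Gm10837 and Pcca.

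Among the 50000 strongest regions, Nr2f1 had more open length in FB than the other 2 nuclear receptors, but with all deposited regions Nr2f1 (10.9 ± 0.571 kb, SD, n = 4) and Nr2e1 (11.1 ± 1.07 kb) overlapped. Around Nr2f1 it was 9.69 and 9.46 kb in wt FB and 8.75 and 9.41 kb in 542 FB. The DFL libraries held 6.42 and 6.42 kb in wt and 5.15 and 4.11 kb in 542, and the PFL libraries 4.24 and 3.60 kb in wt and 3.36 and 2.48 kb in 542. FB lay above limb without overlap, at 2.09 times the limb mean (1.04, SE 0.08, limma adjusted p = 3.63e-06). With regions of a fold of at least 5, this call was lost (0.47, adjusted p = 0.0794). Fam172a is the one other protein-coding gene in reach.

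Nr2f2 has no other protein-coding gene within 100 kb. Its open length was 6.40 ± 0.231 kb in FB (SD, n = 4), 3.07 ± 0.544 kb in DFL and 3.13 ± 0.936 kb in PFL. All 4 FB libraries exceeded the highest limb library, at 4.03 kb, and the difference was 0.97 (SE 0.13, limma adjusted p = 0.000142). DFL and PFL did not differ beyond their spread at Nr2f2 (0.00, 95% interval -0.33 to 0.34).

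Nr2e1, the receptor of neural stem cells, had 7.93 ± 0.419 kb in FB, 3.95 ± 0.714 kb in DFL and 4.84 ± 0.724 kb in PFL (SD, n = 4). FB again stood above all limb libraries (0.80, SE 0.06, limma adjusted p = 3.14e-06). Its limb regions include the promoters of 3 neighbours, Afg1l, Snx3 and Ostm1, which were called in all 12 libraries with mean folds of 15.0, 14.6 and 18.8.

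The comparison of DFL with PFL asks whether distal and proximal limb differ. Nr2f1 had 1.62 times the open length in DFL (0.62, SE 0.10, limma adjusted p = 0.00360), and the lowest DFL library, 4.11 kb, lay just under the highest PFL library, 4.24 kb. It was the 1 gene of the 7 that was longer in DFL, beside 6.59% of all genes. Nr2e1 was the 1 gene that was shorter (-0.27, SE 0.07, adjusted p = 0.0380), beside 5.43% of all genes, and its call was lost without any 1 of 10 of the 12 libraries, at adjusted p of 0.05004 to 0.104. Leaving out wt FB replicate 1 or 542 DFL replicate 2 kept it. At Zic5 (0.30, adjusted p = 0.0925) and Zic2 (0.25, adjusted p = 0.129) DFL did not pass against PFL on this measure. Zic1 gave -0.35 (adjusted p = 0.192). The Nr2f1 difference fell short of the threshold with all deposited regions (0.25, adjusted p = 0.0548) and with a fold of at least 5 (0.09, adjusted p = 0.876).

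Promoters were examined next, since the window of a gene mixes its start with distant regions. The strongest region that overlapped 500 bp on either side of a coding transcript start was taken, wherever its summit lay. The summit was read in tags per 10 M of the library and in the deposited fold. The fold is the tags plus 1 over the local background plus 1. Zic1, Zic2, Zic5 and Nr2f1 had such a region in all 12 libraries, Zic4 in 11, and Nr2e1 in all 4 FB and 3 of 8 limb libraries. At Nr2f2 the strong promoter region lay 1259 bp upstream of the nearest annotated start and was therefore read within 2 kb, a choice made after the data were seen.

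At the Zic1 promoter FB held 48.1, 56.2, 46.1 and 52.7 tags per 10 M, DFL 8.26, 9.99, 8.94 and 10.9, and PFL 12.51, 8.92, 7.92 and 9.08, so that FB exceeded limb 5.30 times (2.42 on the log2 scale, SE 0.145, limma adjusted p = 1.73e-27). The strongest region was not the same one in both, since that of FB lay 127 bp upstream of the start and was called in no limb library, while that of limb lay 503 bp inside the gene and was called in all 12 libraries. At this inner region FB had 17.5 ± 2.48 tags (SD, n = 4) against 9.54 ± 1.18 in DFL and 9.61 ± 2.00 in PFL, but its fold was lower in FB (2.66 ± 0.260) than in DFL (4.40 ± 0.781) and PFL (4.20 ± 0.723). The local background, which divides the fold, was 6.01 times the genome level in FB at the upstream region. In limb it was 1.92 times at the inner region. The promoter fold at Zic1 was higher in FB (0.86, SE 0.13, limma adjusted p = 0.000385).

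The Zic2 and Zic5 promoters followed another order. Zic2 had 47.6, 49.9, 53.8 and 51.9 tags per 10 M in FB and 47.0, 49.7, 59.5 and 54.5 in DFL, but 30.3, 24.1, 25.1 and 24.3 in PFL. Zic5 had 46.3 ± 5.44 in FB and 40.1 ± 4.44 in DFL (SD, n = 4) but 18.2 ± 4.09 in PFL. At both promoters every PFL library lay under every FB and DFL library. In tags, DFL exceeded PFL at Zic2 (1.02 on the log2 scale, SE 0.13, limma adjusted p = 3.84e-09) and Zic5 (1.16, SE 0.14, adjusted p = 1.10e-09). These were 2 of the 4 promoters tested, beside 1.21% of all 12507 promoters. In fold, where the local background was 6.78 times the genome level in DFL and 3.94 times in PFL at Zic2, and 4.70 and 2.87 times at Zic5, 0 of 4 promoters passed in limma between DFL and PFL. There 2 of 4 had an unadjusted p under 0.05, and 0.703% of all promoters passed. The fold differences were 0.26 at Zic2 (adjusted p = 0.262) and 0.49 at Zic5 (adjusted p = 0.0978).

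At the Nr2f1 promoter too, FB and limb were read at different regions, with summits 1.4 kb apart. That of FB, with its summit 0.9 kb upstream of the start, was called in no limb library, and that of limb, 475 bp inside the gene, was called in all 12. The strongest promoter region held 58.7, 53.4, 67.1 and 71.4 tags per 10 M in FB, 22.8, 23.2, 24.7 and 20.7 in DFL and 21.7, 18.0, 23.0 and 15.5 in PFL. Between these regions the difference was 1.57 in tags (SE 0.12, limma adjusted p = 2.64e-20) and 0.21 in fold (adjusted p = 0.175), which had means of 4.11 in FB, 3.80 in DFL and 3.34 in PFL. The local background was 14.1 ± 0.826 times the genome level at the FB region (SD, n = 4) and 5.39 ± 0.276 times at the limb region. At the inner region alone, FB held 29.6 ± 2.68 tags, DFL 22.8 ± 1.65 and PFL 19.6 ± 3.43 (SD, n = 4), while its fold was 1.92 ± 0.0591 in FB, 3.80 ± 0.327 in DFL and 3.34 ± 0.460 in PFL. On that shared region FB lay above every limb library in tags and under every one in fold. The Nr2e1 promoter gave 32.2 ± 3.68 tags in FB, and 2.75 to 3.43 in the 3 limb libraries that called it. Its summit lay 98 bp from a start of Nr2e1 and 92 bp from an annotated start of Ostm1, and which gene it serves was not tested.

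Nr2f2 kept an open promoter in all tissues, with 67.9 ± 5.15 tags per 10 M in FB, 56.9 ± 9.08 in DFL and 51.2 ± 8.15 in PFL (SD, n = 4). The difference from limb was 0.34 (SE 0.10, limma adjusted p = 0.00298), beside a median of 0.229 over all promoters within 2 kb. FB (64.3 to 75.5 tags) and DFL (44.7 to 64.5) overlapped, and the mean folds were 10.9, 10.8 and 10.2. Zic4 had 20.2 ± 2.98 tags in FB (SD, n = 4), 7.13 ± 0.862 in DFL and 6.59 ± 1.63 in 3 PFL libraries. These were all read at 1 region. Its folds overlapped between tissues, at 3.41 ± 0.354 in FB, 3.50 ± 0.286 in DFL and 3.18 ± 0.844 in the 3 PFL libraries. Within 2 kb the difference at Zic4 was 1.40 (SE 0.17, limma adjusted p = 2.37e-11), but it compared different regions, since 3 of the 4 FB libraries were read at a region 16 kb away from that of 7 of the 8 limb libraries, and 1 PFL library at yet another region.

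Counted over the promoters tested, FB was higher than limb in fold at 2 of 4 (Zic1 and Zic5), beside 43.4% of all 12509 promoters, and in tags at 4 of 4, beside 48.3%. Within 2 kb and in tags it was higher at 6 of 6, beside 47.9%. With so large a share of all promoters higher in FB, these counts say little about the 7 genes, and at Zic1 and Nr2f1 within 500 bp, and at Zic1 and Zic4 within 2 kb, they set different regions side by side. At Zic5 the fold call (0.34, SE 0.10, limma adjusted p = 0.0181) was lost without wt FB replicate 1 (adjusted p = 0.0647) or 542 FB replicate 2 (adjusted p = 0.0659), and with folds set to an equal median (0.19, adjusted p = 0.189). At Zic2 the fold difference was -0.02 (adjusted p = 0.843), while in tags it was 0.46 (SE 0.11, adjusted p = 0.000251). That tag difference took DFL and PFL together as limb and came from PFL. At the Zic2 promoter DFL had a mean of 52.7 tags per 10 M and FB 50.8, and their libraries overlapped. In both tag counts, Zic2 was thus higher in FB than in PFL but not than in DFL.

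Between genotypes, open length was shorter in 542 at 2 of the 7 genes, Nr2f1 (-0.30, SE 0.08, limma adjusted p = 0.0240) and Nr2e1 (-0.19, SE 0.06, adjusted p = 0.0402). This stands beside 25.0% of all genes that were shorter in 542, in libraries with fewer tags and shorter regions, which were also mapped on another genome. The median over all genes was -0.13 and that of the 7 genes was -0.04. When the open length of each library was scaled to the same total, the median over all genes became 0.02, 0.741% of genes were shorter in 542, and neither gene passed (Nr2f1 -0.15, adjusted p = 0.305, and Nr2e1 -0.04, adjusted p = 0.741). With scaling 0 of 7 genes passed in limma, and 0 of 7 had an unadjusted p under 0.05. Leaving out a single library, each of the 12 in turn, left 0 or 1 of the 7 genes called. With the 20000 strongest regions Nr2f1 turned to 0.39 in the other direction (adjusted p = 0.0327).

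Among the 50000 strongest regions the genotypes stood in opposite order in forebrain and limb at Nr2e1. Its open length in FB was 7.50 and 7.65 kb in wt and 8.28 and 8.31 kb in 542, whereas in DFL it was 4.62 and 4.35 kb in wt and 2.997 and 3.83 kb in 542, and in PFL 5.48 and 5.46 kb in wt and 4.26 and 4.18 kb in 542. The genotypes did not overlap in any tissue. With all deposited regions the FB order turned and the genotypes overlapped, at 12.7 and 10.65 kb in wt and 10.8 and 10.4 kb in 542, so the opposite order held among the 50000 strongest regions and not in the full set. The difference of the genotype effect between FB and limb was 0.47 (SE 0.13, unadjusted p = 0.00350) and did not pass over all genes in limma (adjusted p = 0.148). It was called at 0 of the 7 genes, with 1 of 7 at an unadjusted p under 0.05, beside 0.0163% of all genes called. Between genotypes 0 of 4 promoters passed in limma in fold, beside 0.544% of all promoters, and 0 of 4 had an unadjusted p under 0.05. In tags 0 of 4 passed, beside 7.51%, and 1 of 4 had an unadjusted p under 0.05.

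To see which parts of the loci differ, the regions of the 12 libraries were joined where they overlapped. All called regions were used, and the libraries were not brought to equal depth, although FB ranged highest in tags. Of 252000 joined regions, 178 lay at the 5 loci, and 33 of these were called in 1 library only. Most had their summit in introns (111) or between genes (49). The summit lay in a coding exon at 2, in an untranslated part at 6 and in another exon at 10. At 28 it lay within 500 bp of an annotated start. Shares of these places, and of calls in 1 library only, were not counted over all joined regions. At the Zic1/Zic4 locus 22 to 26 regions were called per FB library, but 7 to 9 in DFL and 7 to 12 in PFL. At Nr2e1 the counts were 17 to 19 in FB, 8 to 9 in DFL and 8 to 9 in PFL. At Zic2/Zic5 they overlapped, with 21 to 24, 21 to 28 and 13 to 25. Counting a call in any library of a tissue, FB called 30 of the 41 Zic1/Zic4 regions, DFL 17 and PFL 14. Over all 252000 joined regions the numbers were 132968 in FB, 146929 in DFL and 140405 in PFL.

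**Figure D2:**
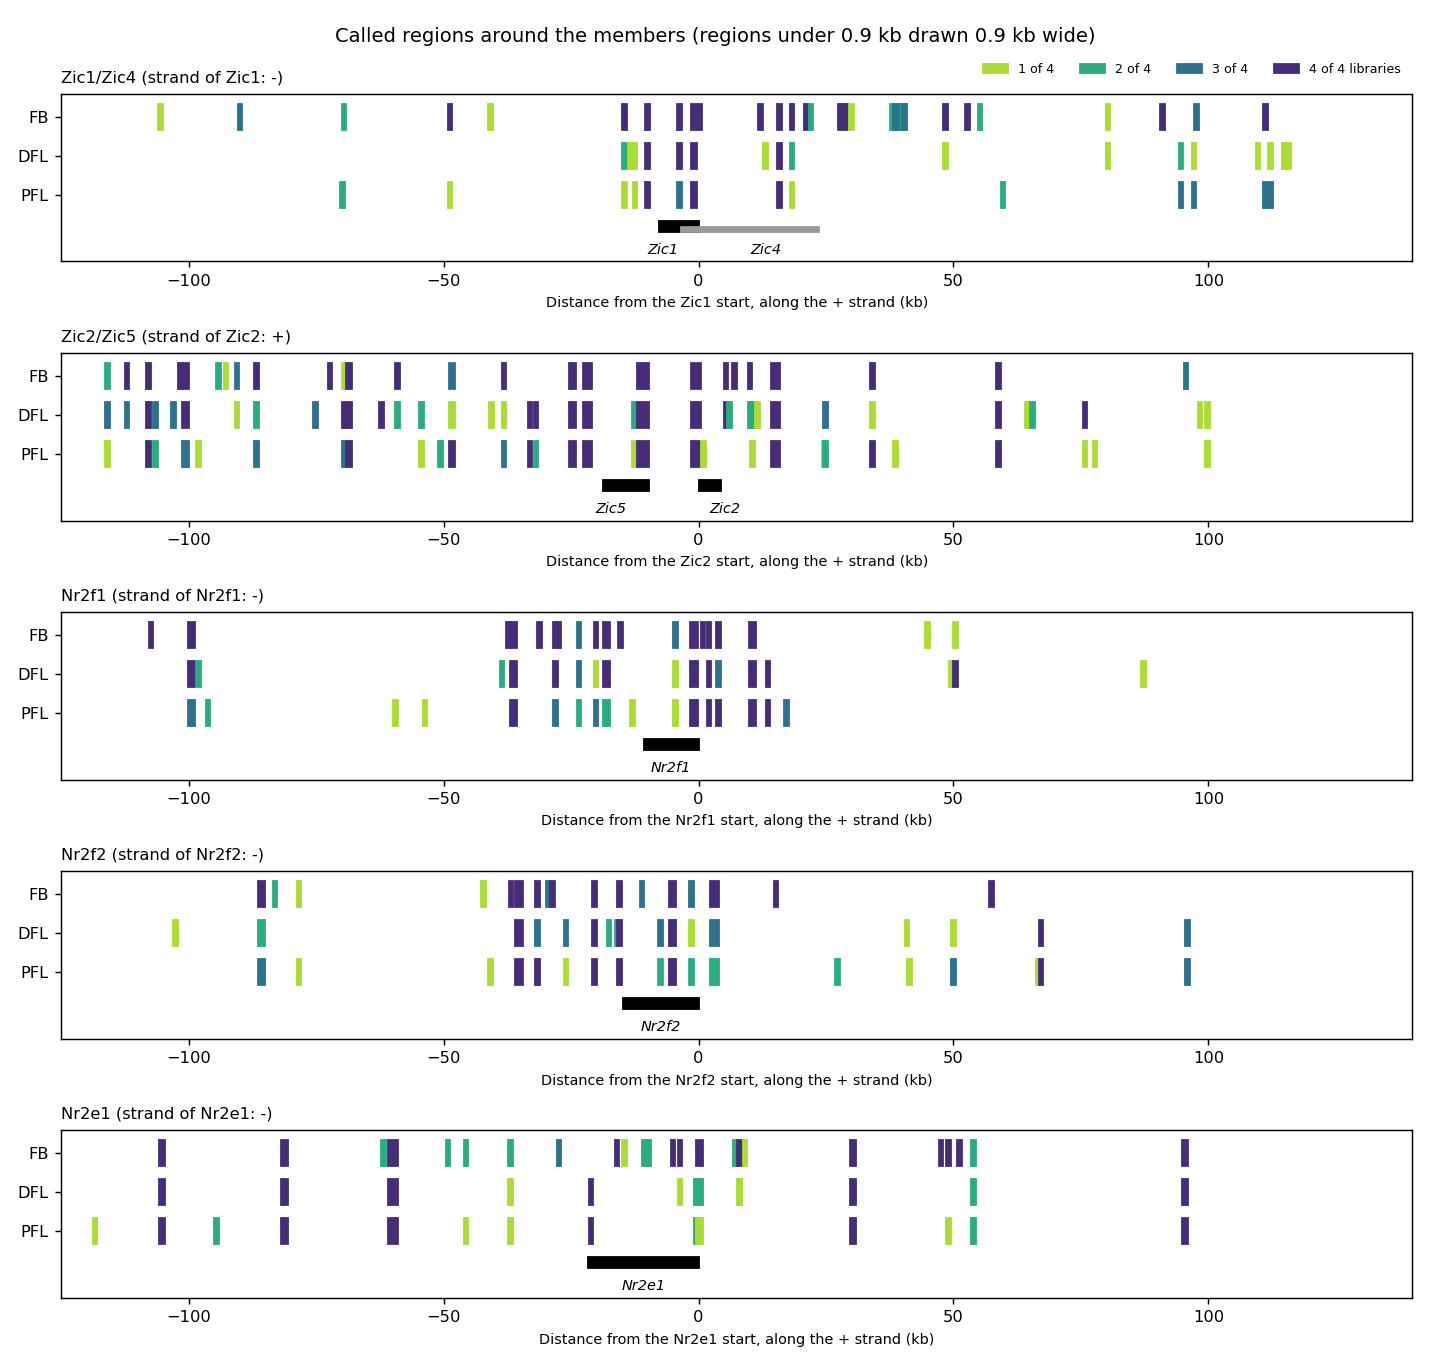
Called regions along the 5 loci by distance from the start of a gene (kb, along the + strand), with rows for FB, DFL and PFL. The shade gives how many of the 4 libraries of the tissue called the region, and bars under the rows are gene bodies. Around Zic1 and Zic4 the FB row is filled mainly at the genes and on the Zic4 side, while the limb rows are sparse. The Zic2/Zic5 rows are similar.

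Of the 178 regions, 24 (13.5%) were called in all 4 FB libraries and in no limb library, beside 6.43% of all joined regions. They were spread over the loci, with 7 at Zic1/Zic4, 3 at Zic2/Zic5, 6 at Nr2f1, 4 at Nr2f2 and 4 at Nr2e1. With a fold of at least 5 required of each call, the count was 11 of 57 (19.3%), beside 9.13% of all regions at that setting. Of the 24, 18 lay in introns and 5 between genes, at a median of 23.0 kb from the start of the nearest of the 7 genes.

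The strongest in fold was the Nr2f2 region 57.7 kb upstream, at chr7:70423744-70424735, printed above. It had folds of 19.1, 17.7, 17.7 and 15.3 and 34.2, 34.6, 32.6 and 29.4 tags per 10 M in the 4 FB libraries. It lies in an intron of the noncoding gene B130024G19Rik. A second region of Nr2f2, 15.1 kb upstream, reached a fold of 14.4 ± 1.56 and 22.2 ± 5.29 tags (SD, n = 4). The far region of Zic4, at chr9:91456289-91457251 in an intron of Gm29478, had a fold of 12.2 ± 0.569 and 22.1 ± 1.76 tags. These 3 regions, all without a call in limb, were higher in fold than the FB promoters of Zic1, Nr2f1 and Nr2e1.

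At the other loci the folds were lower. The Zic5 region in an intron of Clybl had a fold of 6.54 ± 0.987, and the Nr2f1 region in an intron of Fam172a had 6.87 ± 1.05 (SD, n = 4). The Nr2e1 region in an intron of Ostm1 had 5.27 ± 0.468, and weaker FB regions lay inside Nr2e1 itself, 1402 bp and 5142 bp from a start. In tags, the promoter regions led, with 62.6 ± 8.12 per 10 M for the region 0.9 kb upstream of Nr2f1 and 50.8 ± 4.58 for that of Zic1.

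**Figure D3:**
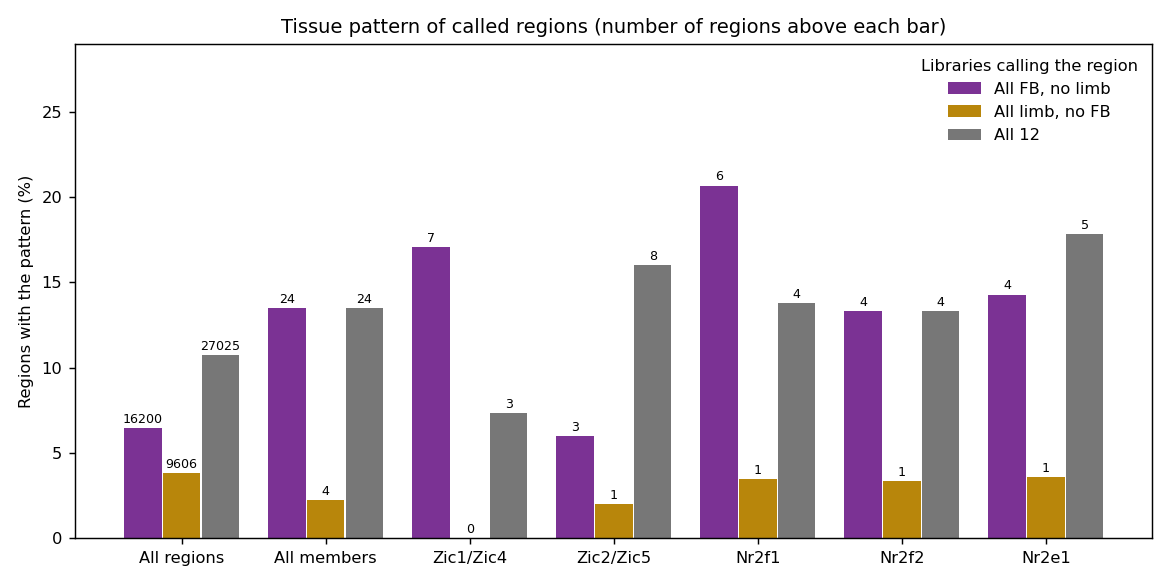
Percent of joined regions (vertical axis) that were called in all FB and no limb libraries, in all limb and no FB libraries, and in all 12, for all regions of the genome, for the 7 genes together and for each locus, with the number of regions above each bar. Regions of FB alone make 13.5% at the 7 genes and 6.43% in the genome, and the Zic1/Zic4 locus holds 0 regions of limb alone.

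Only 4 of the 178 regions (2.25%) had the limb pattern, beside 3.81% of all joined regions, and each of 4 loci held 1 while Zic1/Zic4 held 0. The Zic5 region had folds of 4.85 ± 0.961 in DFL and 5.60 ± 0.608 in PFL (SD, n = 4). The Nr2f1 region had more tags in DFL (14.0 ± 4.35 per 10 M) than in PFL (6.02 ± 0.830), without overlap of the libraries. The Nr2e1 region, in the untranslated part of the gene, had mean folds of 3.93 (SD 1.37) in DFL libraries and 6.69 (SD 1.23) in those of PFL. Among the 50000 strongest regions of each library, 0 of 84 had this pattern, beside 4.82% of all such regions.

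A further 24 regions (13.5%) were called in all 12 libraries, beside 10.7% of all joined regions. Of these, 11 lay within 500 bp of an annotated start, a share that was not counted over all joined regions. Some still differed in tags. A region 6.6 kb upstream of Zic4, at chr9:91355376-91356225, held 31.3 ± 2.91 tags per 10 M in FB, 4.64 ± 0.823 in DFL and 6.21 ± 2.20 in PFL (SD, n = 4). A region 33.2 kb downstream of the Nr2f1 start held 47.9 ± 6.59, 24.4 ± 2.03 and 15.5 ± 3.45 in the same order. The region 2.0 kb upstream of Nr2f1 held 91.0 ± 6.19, 39.7 ± 4.80 and 36.9 ± 7.60. In tags FB did not overlap limb at these 3 regions. In fold this held at the Zic4 region (7.71 ± 0.563 in FB, 3.55 ± 0.415 in DFL and 4.499 ± 1.29 in PFL, SD, n = 4) but not at those of Nr2f1, where FB and limb overlapped, with mean folds of 9.35, 9.24 and 7.90 at the region 33.2 kb downstream and 6.11, 6.89 and 6.72 at the one 2.0 kb upstream.

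Within the limb, 3 regions (beside 2.05% of all joined regions) were called in all 4 DFL and no PFL libraries. They were a region 52.7 kb downstream of the Zic5 start with a DFL fold of 5.41 ± 0.439 (SD, n = 4), one 5.3 kb downstream of the Zic2 start that FB shared, and one 50.3 kb upstream of Nr2f1 that 1 FB library shared. The reverse was met at 0 of 178, beside 1.49%. A call in all wt and no 542 libraries was met at 0 of 178, beside 0.0127% of all joined regions, and the reverse at 0 of 178, beside 0.00794%. Within a tissue, both wt libraries but no 542 library called 6 of 116 regions in FB (5.17%, beside 4.25% of all regions called in FB), 4 of 101 in DFL (3.96%, beside 6.19%) and 8 of 93 in PFL (8.60%, beside 8.06%). The reverse held for 5 in FB (4.31%, beside 2.12%), 7 in DFL (6.93%, beside 1.98%) and 2 in PFL (2.15%, beside 1.35%).

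The motifs were counted in 300 bases around the summit of each joined region. TAATTA, the core bound by many homeodomain proteins, was present in 8 of the 24 FB regions (33.3%), as in 32.4% of all 16200 FB regions of the genome, and in 14.1% of all 252000 regions. The Zic type CCTGCTG was present in 4 of 24 (16.7%), beside 12.4% of FB regions and 12.6% of all regions, and the nuclear receptor type AGGTCA also in 4 of 24, beside 13.5% and 15.9%. CAGCTG was present in 6 of 24 (25.0%), beside 24.1% and 23.9%, and AACAATG in 3 of 24, beside 8.99% and 5.49%. CCAATAAA was found in 0 of 24, beside 0.901% and 1.81%, and the CTCF type in 0 of 24, beside 0.210% and 0.988%. In the sequences printed above, the Nr2f2 region 15.1 kb upstream holds AGGTCA on the other strand, TAATTA and CAGCTG, while the stronger one 57.7 kb upstream holds none of the 7. The limb region of Nr2f2 holds AGGTCA. The FB regions had a median GC content of 48.2%, and those called in all 12 libraries had 63.3%.

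Relatives of the 7 genes did not share 1 direction. Over all 18351 genes tested, 5602 were longer in FB and 3914 were shorter. Of 6 Gli and Glis genes, 1 had a longer open stretch in FB, Glis3 (0.41), and 3 had shorter ones, Gli2 (-0.44), Glis1 (-0.70) and Glis2 (-0.33), with a median of -0.21 beside 0.05 over all genes. Gli2 carries the activating response to Hedgehog signals. Of 7 related nuclear receptors tested, Nr2c2 was longer in FB (0.28), and Nr2e3 (-0.98), a photoreceptor gene, and Rxra (-0.75), the retinoid X receptor, were shorter. Their median was -0.02. With so few genes in each list and so many genes called in both directions, these counts say little about the relatives as a set.

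Genes that pattern the forebrain beside these factors were longer in FB at 14 of the 16 tested, beside 30.5% of all genes. Of them 0 were shorter, and their median was 0.74. Otx1 (1.69) and Otx2 (1.60), homeobox genes of the anterior brain, and Nkx2-1 (1.42), a gene of the ventral forebrain, led, and Zic1 and Zic4 exceeded them. Fgf8 (0.22, limma adjusted p = 0.0993) and Bcl11a (-0.21, adjusted p = 0.0922) did not pass. Markers of other cells that the samples could hold also moved. Both neural crest markers, 2 of 4 endothelium and blood markers (Tal1 and Gata1), 2 of 4 muscle markers (Myod1 and Pax7) and 1 of 3 ectoderm markers (Krt5) were longer in FB, while Myf5 was shorter. These stand beside 5602 longer and 3914 shorter of all 18351 genes. Summed open length of the endothelium and blood markers was 22.1 to 25.9 kb in FB, 19.1 to 20.5 kb in DFL and 17.4 to 19.9 kb in PFL. The part of such cells in the open chromatin of the 7 genes was not tested. Between DFL and PFL, 2 of 4 muscle markers, Myod1 and Pax3, were longer in PFL, beside 5.43% of all genes. Sall3, a distal limb gene, was longer in DFL like Nr2f1, beside 6.59% of all genes.

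The genes most like each member were found by the Pearson correlation of log2(kb + 0.5) over the 12 libraries, which share depth and tissue and so give a description only. For Zic1 and Zic4 they were Spata16 (0.980 and 0.984), Cyp7b1 (0.979 and 0.983) and Neto1 (0.973 and 0.979). Nr2f1 was most like Zc3h12c (0.986), Tenm2 (0.975) and Zmat5 (0.973), whose mean open lengths were likewise highest in FB and lowest in PFL. Nr2e1 was most like Hs2st1 (0.978), Evl (0.975) and Arhgap19 (0.973), and Nr2f2 like Rbm8a2 (0.949), Gpm6a (0.937) and Ifih1 (0.936). For Zic2 and Zic5 the closest genes were Gstk1 (0.916) and Cltrn (0.933). A correlation of 0.9 or more was met with 419 of 18334 genes for Zic1, 276 for Nr2f1, 51 for Nr2f2 and 579 for Nr2e1, but with 3 for Zic2 and 5 for Zic5.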

How the data were processed

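ATAC-seq regions of 13 libraries were used, 12 of them in 6 groups of 2 by tissue and genotype as labelled. The authors trimmed reads with Cutadapt, aligned them with bowtie2 on mm10 or, for 542, on the mutant genome, filtered them with bamtools, picard and bedtools, and called regions with MACS2 per library without control. The deposited fold is a ratio of tags to local background, and the deposited −log10 p and −log10 q are those of MACS2. The deposited score was not used.

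Summits with equal borders were taken as 1 region. Tags under summits were recovered from fold and p as whole numbers (tolerance 0.01 on −log10 p), and the estimated depth is 37.5 to 70.7 M tags. Open length per gene (GENCODE M21, GRCm38, mean of at least 0.5 kb) and promoter values were fitted with limma 3.58.1 (R 4.3.3, trend and robust) in 1 model of 6 groups, with Benjamini-Hochberg adjustment over all genes and a threshold of 0.05. The code was tested on simulated data. Tables were made in Python 3.11.15 with pandas 2.3.3, numpy 2.4.6 and scipy 1.17.1.

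Named were the 7 genes, promoter regions, up to 3 regions of highest mean fold per locus and pattern, and the 3 genes most correlated with each member. Members and lists were chosen with earlier results of these data known. A gene of 1 list is not reported here. The 2 kb promoters were added after the values were seen. Genes on chromosome 2 near or beyond 75 Mb, where coordinates differ between the genomes, were left out, among them Pax6, Meis2 and Hnf4a. The earlier wt DFL library entered only 1 alternative.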

Additional observations from a re-analysis of the deposited data

Results flagged for a closer look

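In 36 sets of 4 libraries, a tissue's values for 1 gene and measure, 1 library stood apart past the 95% critical value of Dixon, which flags about 1 in 20 sets by chance. At the Zic2 promoter, wt PFL replicate 1 held 30.34 tags per 10 M while the other PFL libraries held 24.11, 24.29 and 25.08, a gap of 0.844 of the whole range. All 4 values lie under those of FB and DFL.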

How the results depend on the processing

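For single genes, 642 values under alternatives kept their side of the threshold, 54 no longer passed, 17 newly passed and 4 reversed. A value that passed in neither setting was counted as kept whatever its sign. Such differences could change direction, as at Nr2f2 between DFL and PFL (-0.19 to 0.20 with a library left out). Reversed were the genotype difference at Zic5 with all deposited regions (-0.14), that at Nr2f1 with the 20000 strongest (0.39), and the FB difference at the Zic2 promoter in tags, within 0.5 kb (0.46) and within 2 kb (0.46). The causes were not tested.

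The count of genes called between FB and limb in open length was 6 under the main setting and 5 to 7 with a library left out. Between DFL and PFL it was 2, but 1 with the 20000 strongest regions, a 50 kb window, the number of regions or the earlier library included, 0 with a fold of at least 5, and 1 to 3 with a library left out. Between genotypes it was 2, but 5 with all regions, 1 with the 20000 strongest, a 50 kb window or no filter, 0 with a fold of at least 5, the number of regions, scaling or other promoters left out, and 0 to 1 with a library left out. For promoter fold between FB and limb it was 2, but 4 in tags, 1 at equal median, 1 of 2 tested within 200 bp, 6 in tags within 2 kb, and 1 to 2 with a library left out. Between DFL and PFL it was 0, but 2 in tags and 2 in tags within 2 kb.

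Regions of FB alone numbered 24, but 11 of 57 at a fold of at least 5 (9.13% of all regions at that setting). Those of limb alone numbered 4, but 0 of 84 among the 50000 strongest (4.82% of all) and 0 of 57 at that fold (4.14%). Those in all 12 libraries numbered 24, but 10 of 84 (17.4% of all) and 8 of 57 (17.1%). Those of DFL and not PFL numbered 3, but 0 at that fold and 3 to 5 with a library left out (5 without wt DFL replicate 2). Those of PFL and not DFL numbered 0, and 0 to 2 with a library left out (2 without wt DFL replicate 1, 1 without wt PFL replicate 2 or 542 PFL replicate 1).

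Over all genes, 4691 were called between genotypes, but 11572 with all regions, 1619 with the 20000 strongest, 2337 at 50 kb, 1254 with other promoters left out, 413 with scaling and 0 by number. Between FB and limb 9516 were called, but 6046 with the 20000 strongest, and between DFL and PFL 2207, but 863 with those, 1355 at a fold of at least 5 and 1423 by number. For promoters, 6229 were called between FB and limb, but 3257 at equal median, 88 between DFL and PFL, but 231 in tags, and 68 between genotypes, but 939 in tags. Scaling turned the split of longer to shorter genes from 5602 and 3914 to 4715 and 4873 for FB against limb, from 1210 and 997 to 1239 and 1528 for DFL against PFL, and from 105 and 4586 to 277 and 136 for genotypes. Equal medians turned promoters from 5430 higher and 799 lower in FB to 1413 and 1844.

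Replicate numbers did not pair the samples (correlation of deviations -0.084 to 0.044). With a replicate block, 6, 2 and 2 of the 7 genes were called in the 3 comparisons of open length, and no call of a member changed.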
